A study of Mus musculus with 8 samples.

Results

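The genes described here are 10 neighbours at the start of mouse chromosome 8, in the order Irs2, Rab20, Naxd, Ing1, Ankrd10, Arhgef7, Pcid2, Cul4a, Lamp1 and Tfdp1, out of 12393 genes measured. They were chosen by their measured log2 levels, which were high in 1 or both of the BrafCa/+ sarcomas relative to the 4 BrafCa/Ca sarcomas. That difference is therefore given as a description. Tests that include it are reported below, but none of them is used as support. The BrafCa/Ca sarcomas were the baseline of the choice and the muscles its reference, so comparisons between these are not independent of it either. Total RNA was measured on 8 Affymetrix arrays, and a level below is the log2 expression value of a probe set, a group of short probes that reports 1 transcript. Where a gene had several probe sets, its brightest one on average is given unless another is named, and the 10 genes had 14 probe sets in all. DNA copy number was not measured, so no gain of DNA is shown by these values.

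The arrays held 2 sarcomas of genotype Braf Ca/+; p53 Fl/Fl (Ca/+ sarcomas 1 and 2), 4 sarcomas of genotype Braf Ca/Ca; p53 Fl/Fl (Ca/Ca sarcomas 1, 2, 3 and 5), 1 Ca/+ muscle and 1 Ca/Ca muscle. All mice thus carried floxed alleles of the tumour suppressor p53 on both chromosomes, the muscles included. The conditional allele of the kinase gene Braf was on 1 chromosome in Ca/+ samples and on both in Ca/Ca samples. Tumours were started by injecting an adenovirus that expresses Cre recombinase, and each muscle was normal tissue of a hind limb that bore no tumour. The labels give no ages and do not say that each array is from its own mouse, or whether a tumour and a muscle shared one. The p-values therefore reflect only how much these 8 samples vary, part of which may be technical.

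The products of the stretch act in unrelated processes. Tfdp1 encodes DP1, the partner with which E2F transcription factors bind DNA, and E2F-DP pairs drive the genes of DNA replication and cell division unless a pocket protein of the retinoblastoma family holds them inactive. Cul4a encodes the scaffold of a ubiquitin ligase that, with the adaptor DDB1, marks proteins such as the replication licensing factor CDT1 for destruction. Genes that lie side by side can be gained or lost together in tumours, and the human neighbourhood that holds TFDP1 and CUL4A is known for gains in some cancers.

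Promoter sequences of 4 genes at the Tfdp1 end are shown because this is where both Ca/+ sarcomas were high. They were taken from RefSeq (build GRCm38.p6) as windows of 250 bases before to 50 after a gene's start, written from 5′ to 3′ on the gene's own strand. Cul4a (chr8:13105373-13105672, plus strand) and Pcid2 (chr8:13105294-13105593, minus strand) start next to each other and are read in opposite directions. Their windows share 221 bases, which are in capitals in both.
Cul4a: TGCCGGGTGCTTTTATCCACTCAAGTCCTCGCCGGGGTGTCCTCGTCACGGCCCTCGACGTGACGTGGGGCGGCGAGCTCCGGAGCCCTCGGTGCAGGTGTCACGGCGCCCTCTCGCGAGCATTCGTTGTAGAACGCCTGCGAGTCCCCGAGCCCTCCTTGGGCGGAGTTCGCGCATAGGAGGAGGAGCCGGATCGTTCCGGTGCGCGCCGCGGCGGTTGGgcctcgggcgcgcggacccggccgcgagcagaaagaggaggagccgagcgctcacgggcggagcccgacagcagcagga
Pcid2: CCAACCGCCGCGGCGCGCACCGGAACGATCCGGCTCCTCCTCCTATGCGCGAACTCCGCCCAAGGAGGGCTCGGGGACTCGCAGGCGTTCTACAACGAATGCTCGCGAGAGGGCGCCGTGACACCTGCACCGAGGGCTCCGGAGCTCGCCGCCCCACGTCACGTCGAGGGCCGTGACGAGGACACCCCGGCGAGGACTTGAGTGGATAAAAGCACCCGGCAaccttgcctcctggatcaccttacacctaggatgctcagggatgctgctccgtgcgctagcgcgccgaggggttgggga
For Tfdp1 (chr8:13338501-13338800, plus strand) capitals mark a match to an E2F motif, and for Lamp1 (chr8:13158911-13159210, plus strand) they mark E-boxes.
Tfdp1: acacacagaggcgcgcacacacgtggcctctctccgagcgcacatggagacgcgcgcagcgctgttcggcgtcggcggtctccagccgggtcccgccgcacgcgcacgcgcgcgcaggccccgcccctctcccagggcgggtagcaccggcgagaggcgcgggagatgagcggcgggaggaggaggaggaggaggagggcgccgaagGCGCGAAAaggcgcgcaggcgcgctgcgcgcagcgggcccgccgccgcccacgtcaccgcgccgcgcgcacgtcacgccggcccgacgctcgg
Lamp1: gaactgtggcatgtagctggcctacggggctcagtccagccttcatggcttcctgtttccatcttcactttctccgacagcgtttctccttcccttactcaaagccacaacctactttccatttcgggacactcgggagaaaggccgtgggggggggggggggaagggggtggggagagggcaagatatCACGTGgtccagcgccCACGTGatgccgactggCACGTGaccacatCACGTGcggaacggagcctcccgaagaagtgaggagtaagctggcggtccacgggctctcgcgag
The E2F motif was searched as TTTCGCGC or TTTGGCGC and the E-box as CACGTG, both on either strand. All 10 genes had at least 1 window. They had 19 windows in all, since a gene can have several starts. An E2F motif was in 2 of the 19, both overlapping windows of Tfdp1, and in 267 of 32851 windows of the whole RefSeq table (0.813%). An E-box was in 4 of the 19, 1 each of Irs2, Rab20, Lamp1 and Tfdp1, and in 2349 windows of the table (7.15%). The Lamp1 window held 4 E-boxes, a number reached by 8 of the 32851 windows (0.0244%). These matches describe letters in the windows and are not measured binding sites.

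Across the stretch Ca/+ sarcoma 1 was high from end to end, whereas Ca/+ sarcoma 2 was high mainly at the Tfdp1 end. The mean level of the 10 genes was 10.23 in Ca/+ sarcoma 1 and 8.47 in Ca/+ sarcoma 2, against 7.84, 7.80, 7.73 and 7.74 in Ca/Ca sarcomas 1, 2, 3 and 5 and 7.57 and 7.58 in the Ca/+ and Ca/Ca muscles. A gene is called raised below when its level in a Ca/+ sarcoma lay above all 4 Ca/Ca sarcomas and at least 0.5 (log2) above their mean. By this rule 10 of 10 genes were raised in Ca/+ sarcoma 1, where 7.71% of all genes were, and 5 of 10 in Ca/+ sarcoma 2, where 7.33% of all genes were. Since this contrast chose the genes, nothing is read from those counts. They use the brightest probe set of each gene. For Ing1 and Ankrd10 the second probe set was raised in Ca/+ sarcoma 2, where the brightest was not. With a minimum of 1 in place of 0.5, the counts were 9 (2.24% of all genes) and 2 (1.67%).

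**Figure D1:**
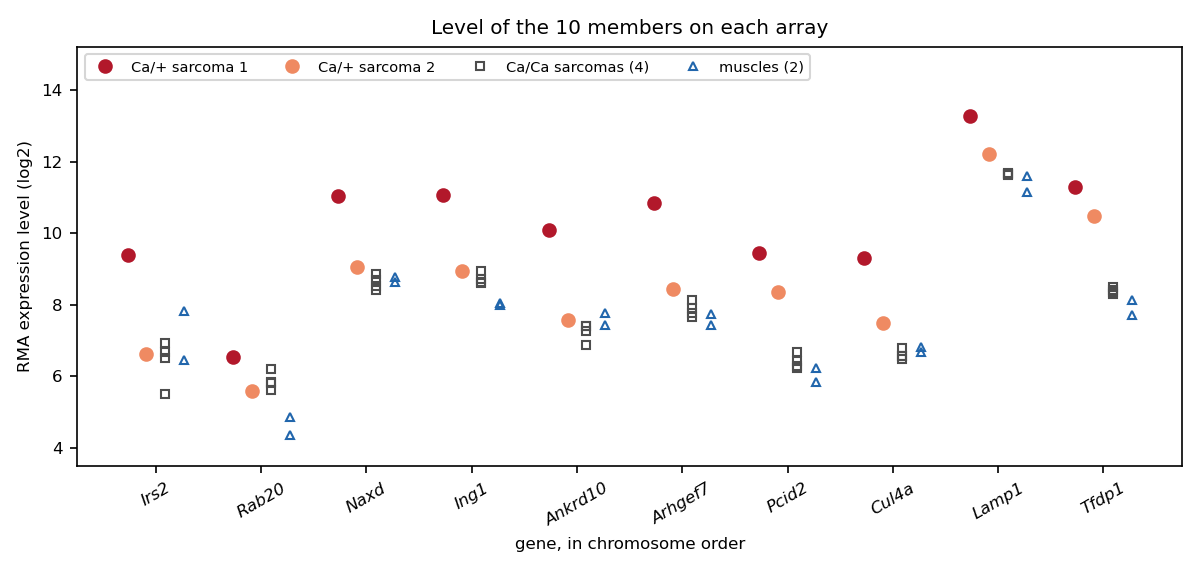
Expression level (RMA, log2) of each of the 10 genes on each array, in chromosome order, with filled circles for the Ca/+ sarcomas, open squares for the 4 Ca/Ca sarcomas and open triangles for the 2 muscles. Ca/+ sarcoma 1 lies above every other sarcoma for all 10 genes, and Ca/+ sarcoma 2 stands clear of the Ca/Ca sarcomas from Pcid2 to Tfdp1.

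The 4 genes at the Tfdp1 end were raised in both Ca/+ sarcomas. Tfdp1 had a level of 11.30 in Ca/+ sarcoma 1 and 10.48 in Ca/+ sarcoma 2, against 8.36, 8.49, 8.43 and 8.31 in Ca/Ca sarcomas 1, 2, 3 and 5 and 7.72 and 8.13 in the Ca/+ and Ca/Ca muscles. It was 2.90 above the Ca/Ca mean in Ca/+ sarcoma 1, which is 7.48-fold, and 2.08 above it in Ca/+ sarcoma 2, which is 4.23-fold. The 4 Ca/Ca sarcomas lay close together (8.40 ± 0.08, SD, n = 4), and both Ca/+ sarcomas stood far above them and above both muscles.

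Pcid2, which encodes a subunit of the TREX-2 complex that links transcription to messenger RNA export, had a level of 9.46 in Ca/+ sarcoma 1 and 8.35 in Ca/+ sarcoma 2. Its Ca/Ca sarcomas 1, 2, 3 and 5 had 6.67, 6.30, 6.23 and 6.44, and the Ca/+ and Ca/Ca muscles 5.86 and 6.22. The excess over the Ca/Ca mean was 3.05 (8.28-fold) in Ca/+ sarcoma 1 and 1.94 (3.84-fold) in Ca/+ sarcoma 2. A second Pcid2 probe set differed from its Ca/Ca mean by 2.95 and 2.28 in the same 2 sarcomas, so both probe sets placed the 2 tumours above every other array.

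Cul4a had a level of 9.32 in Ca/+ sarcoma 1 and 7.50 in Ca/+ sarcoma 2, against 6.56, 6.58, 6.50 and 6.79 in Ca/Ca sarcomas 1, 2, 3 and 5 and 6.81 and 6.69 in the Ca/+ and Ca/Ca muscles. That is 2.71 (6.56-fold) above the Ca/Ca mean in Ca/+ sarcoma 1 and 0.89 (1.86-fold) in Ca/+ sarcoma 2. Although Cul4a and Pcid2 share the start region printed above, their excess in Ca/+ sarcoma 2 was 0.89 for Cul4a and 1.94 for Pcid2, while in Ca/+ sarcoma 1 it was 2.71 and 3.05.

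Lamp1, a major glycoprotein of the lysosome membrane, was raised in both Ca/+ sarcomas by less than Tfdp1, Pcid2 and Cul4a. It stood at 13.26 in Ca/+ sarcoma 1 and 12.20 in Ca/+ sarcoma 2, against 11.69, 11.65, 11.63 and 11.67 in Ca/Ca sarcomas 1, 2, 3 and 5 and 11.15 and 11.59 in the Ca/+ and Ca/Ca muscles. The excess over the Ca/Ca mean was 1.60 (3.04-fold) and 0.54 (1.46-fold) in Ca/+ sarcomas 1 and 2. Both were above all other arrays, and the level in Ca/+ sarcoma 1 lay near the largest value of any probe set, which was 13.54 to 13.87 depending on the array.

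From Irs2 to Arhgef7 the excess belonged mainly to Ca/+ sarcoma 1. Irs2, an adaptor that carries the signal of the insulin and IGF receptors, had a level of 9.40 in Ca/+ sarcoma 1 and 6.63 in Ca/+ sarcoma 2, against 6.92, 6.67, 5.52 and 6.52 in Ca/Ca sarcomas 1, 2, 3 and 5 and 7.84 and 6.45 in the Ca/+ and Ca/Ca muscles. Its excess was 2.99 (7.94-fold) in Ca/+ sarcoma 1 and 0.22 in Ca/+ sarcoma 2, and only the first of these sarcomas lay outside the Ca/Ca range.

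Arhgef7 encodes beta-PIX, an exchange factor that activates the small GTPases RAC1 and CDC42. Its level was 10.84 in Ca/+ sarcoma 1 and 8.43 in Ca/+ sarcoma 2, against 7.90, 8.14, 7.77 and 7.67 in Ca/Ca sarcomas 1, 2, 3 and 5 and 7.45 and 7.76 in the Ca/+ and Ca/Ca muscles. Both Ca/+ sarcomas exceeded all other arrays, by 2.98 (7.87-fold) and 0.56 (1.48-fold) relative to the Ca/Ca mean. A second Arhgef7 probe set was dim on all arrays, between 1.94 and 2.36, and was 0.14 above its Ca/Ca mean in Ca/+ sarcoma 1.

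Ing1 encodes a reader of methylated histone H3 that works in the SIN3-HDAC corepressor. It had a level of 11.07 in Ca/+ sarcoma 1 and 8.95 in Ca/+ sarcoma 2, against 8.60, 8.71, 8.95 and 8.65 in Ca/Ca sarcomas 1, 2, 3 and 5 and 8.005 and 8.05 in the Ca/+ and Ca/Ca muscles. The excess was 2.34 (5.07-fold) in Ca/+ sarcoma 1 and 0.22 in Ca/+ sarcoma 2, where Ing1 was at the level of Ca/Ca sarcoma 3. The second probe set of Ing1 gave 2.62 and 0.59 and was raised in both Ca/+ sarcomas.

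Naxd encodes the dehydratase that repairs damaged NADH and NADPH. Its level was 11.04 in Ca/+ sarcoma 1 and 9.04 in Ca/+ sarcoma 2, against 8.52, 8.41, 8.69 and 8.87 in Ca/Ca sarcomas 1, 2, 3 and 5 and 8.78 and 8.64 in the Ca/+ and Ca/Ca muscles. The excess was 2.41 (5.33-fold) in Ca/+ sarcoma 1 and 0.42 in Ca/+ sarcoma 2, which lay just above the Ca/Ca range. Ankrd10, an ankyrin repeat gene, had 10.08 in Ca/+ sarcoma 1 and 7.58 in Ca/+ sarcoma 2, against 7.42, 7.26, 7.40 and 6.88 in Ca/Ca sarcomas 1, 2, 3 and 5 and 7.76 and 7.44 in the Ca/+ and Ca/Ca muscles. That is an excess of 2.84 (7.15-fold) and 0.35. A second Ankrd10 probe set gave 2.92 and 0.65 and was raised in both Ca/+ sarcomas. The level of Ankrd10 in Ca/+ sarcoma 2 lay between those of the 2 muscles.

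Rab20, a small GTPase of endosomes and phagosomes, had the smallest excess of the 10 genes. Its level was 6.53 in Ca/+ sarcoma 1 and 5.58 in Ca/+ sarcoma 2, against 5.81, 5.83, 6.20 and 5.63 in Ca/Ca sarcomas 1, 2, 3 and 5 and 4.36 and 4.88 in the Ca/+ and Ca/Ca muscles. Ca/+ sarcoma 1 was 0.66 (1.58-fold) above the Ca/Ca mean, and Ca/+ sarcoma 2 was below every Ca/Ca sarcoma, with a difference of -0.29. Among the 10 genes, by their brightest probe sets, Lamp1 (0.54) and Arhgef7 (0.56) lay just above the minimum of 0.5 in Ca/+ sarcoma 2. Naxd (0.42) and Ankrd10 (0.35) were the nearest below it.

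A further 11 genes between Irs2 and Tfdp1 were measured, and they are not among the 10. Calls in this paragraph use the brightest probe set of each gene. Of these, 6 were raised in Ca/+ sarcoma 1, with differences from the Ca/Ca mean of 1.40 for Col4a1 and 1.74 for Col4a2, which encode the main chains of basement membrane collagen IV, 2.91 for Tubgcp3, a microtubule nucleation protein, 2.38 for Atp11a, a lipid flippase, 1.83 for Grtp1 and 2.95 for Tmco3. Of the 11 genes, 3 were raised in Ca/+ sarcoma 2, namely Atp11a (1.13), Grtp1 (1.34) and Tmco3 (1.29). The other 5 were not raised in either. Among these, 1700016D06Rik, Sox1, F7 and Proz were among the dimmest 25% of all genes (mean level under 4.40), and their levels ran from 2.08 to 5.45 over all arrays. F10, coagulation factor X, was low in the Ca/+ sarcomas, at 3.56 and 4.37 in Ca/+ sarcomas 1 and 2, against 5.81, 5.25, 5.64 and 4.77 in Ca/Ca sarcomas 1, 2, 3 and 5, 3.94 in the Ca/+ muscle and 7.17 in the Ca/Ca muscle. Of the 17 genes in the stretch that were above this limit, 16 were raised in Ca/+ sarcoma 1, all but F10.

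For counting, the stretch is split here between Proz and Pcid2, although the values do not place a boundary there. In Ca/+ sarcoma 2, Tubgcp3 differed by 0.26, and the next gene, Atp11a, was already raised by its brightest probe set (1.13). A second Atp11a probe set, between 4.96 and 5.53 on all arrays, differed by 0.44 and 0.17 in Ca/+ sarcomas 1 and 2. It was raised in neither. Of the genes between Atp11a and Pcid2, F7 and Proz were dim and F10 was low. Of the 6 genes from Pcid2 to Tfdp1, 6 were raised in Ca/+ sarcoma 1 and 6 in Ca/+ sarcoma 2, with median differences of 2.81 and 1.32. By their brightest probe sets, 10 of the 15 genes from Irs2 to Proz were raised in Ca/+ sarcoma 1. In Ca/+ sarcoma 2 there were 2, Arhgef7 and Atp11a, and the medians in the 2 sarcomas were 1.74 and 0.22. Both Ca/+ sarcomas lay above all 4 Ca/Ca sarcomas for 7 of the 10 chosen genes and 5 of the 11 others, beside 11.3% of all genes. Genes raised in both were 5 of the 10 and 3 of the 11, beside 2.94% of all genes.

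None of the 5 measured genes that follow Tfdp1 was raised in either sarcoma, but 2 of these, Grk1 and 1700029H14Rik, were among the dimmest 25% of all genes, which leaves 3. In Ca/+ sarcoma 1 the differences of these 5 were 0.17 for Atp4b, 0.03 for Grk1, 0.27 for Gas6, -0.19 for 1700029H14Rik and -1.07 for Rasa3, a GTPase-activating protein of Ras. The same genes lay between -0.35 and 0.25 in Ca/+ sarcoma 2. Ahead of Irs2, 3 of the 5 nearest measured genes were raised in Ca/+ sarcoma 1. These were Shcbp1 (2.12), Efnb2 (2.66), which encodes the ligand ephrin-B2, and Arglu1 (1.45), while Slc10a2 (-0.15) and Tnfsf13b (0.06) were not. Of these 5 genes, 2 were raised in Ca/+ sarcoma 2, Shcbp1 (1.35) and Tnfsf13b (0.68), and Efnb2 and Arglu1 differed by -0.14 and 0.34.

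**Figure D2:**
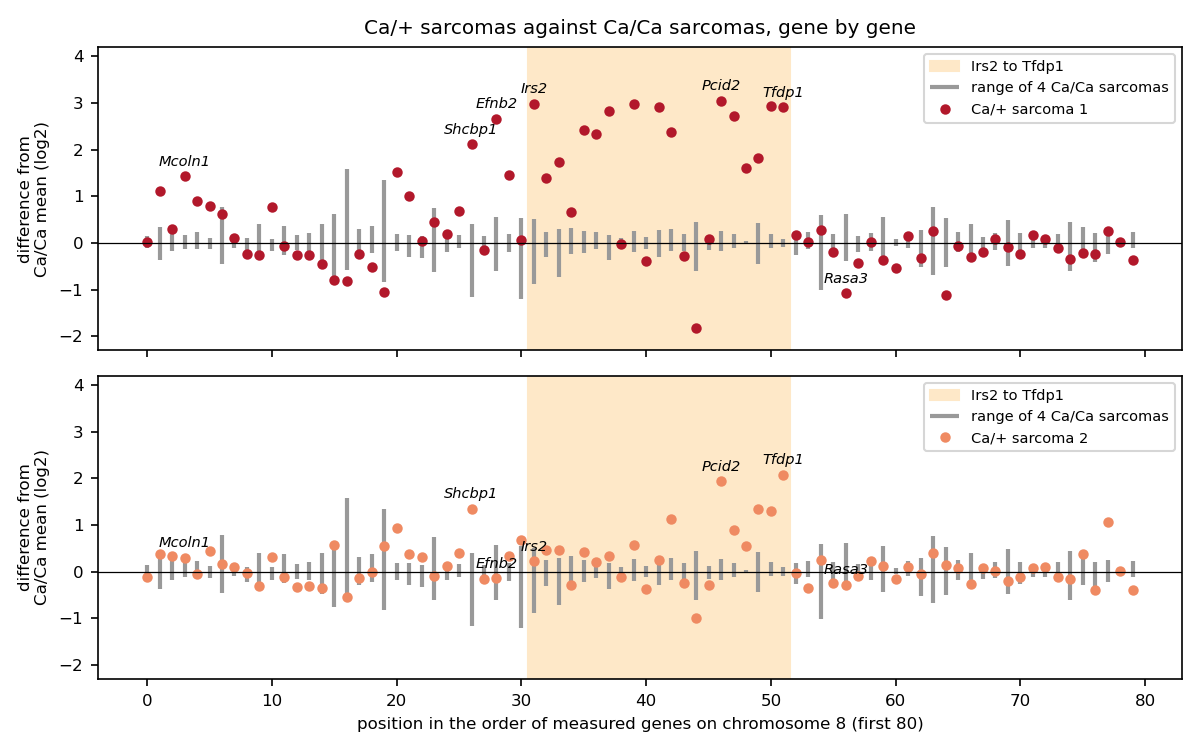
Difference of each Ca/+ sarcoma from the Ca/Ca mean (log2) for the first 80 measured genes of chromosome 8 in their order, with grey bars for the range of the 4 Ca/Ca sarcomas around their own mean and the Irs2 to Tfdp1 stretch shaded. In the upper panel (Ca/+ sarcoma 1) the points of the shaded stretch reach 3.05, and in the lower panel (Ca/+ sarcoma 2) the highest points within the shading lie at its right-hand end, where Tfdp1 has 2.08.

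After Tfdp1, chromosome 8 was mostly lower in Ca/+ sarcoma 1. Over the 593 genes after Tfdp1 the median difference from the Ca/Ca mean was -0.32, only 94 genes had a positive difference, 5 were raised (0.843%) and 168 were lowered by the mirrored rule (28.3%, beside 7.81% of all genes). In Ca/+ sarcoma 2 the same 593 genes had a median of -0.04, with 38 raised and 34 lowered (5.1% of all genes were lowered). For each Ca/Ca sarcoma set against the other 3, the median of these genes was -0.01, 0.01, 0.00 and 0.00 in Ca/Ca sarcomas 1, 2, 3 and 5. On the other 19 chromosomes the median over all genes lay between -0.11 and 0.07 in Ca/+ sarcoma 1 and between -0.06 and 0.06 in Ca/+ sarcoma 2. Before Irs2 the chromosome was not mostly lower. Of the 31 genes there, 11 (35.5%) were raised in Ca/+ sarcoma 1 and 3 (9.68%) in Ca/+ sarcoma 2, beside 7.71% and 7.33% of all genes. Their median differences were 0.10 and 0.11, with 19 and 17 positive, and 4 (12.9%) and 0 were lowered.

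A running median of 9 neighbouring genes placed the stretch against the whole genome. In Ca/+ sarcoma 1 the highest running median of any chromosome was 2.38, on chromosome 8 from Rab20 to Atp11a. The genes were chosen for high values in this tumour, so this rank is partly fixed by the choice. The next were 1.52 on chromosome 14, from Mcpt2 to Gzmf, and 1.43 on chromosome 9, from Sh3bgrl2 to Snap91. In Ca/+ sarcoma 2 the chromosome 8 maximum, from Atp11a to Tmco3, was 0.89 and came 4th among the chromosomes. Each Ca/Ca sarcoma was scanned in the same way against the other Ca/Ca sarcomas. Ca/Ca sarcoma 1 had higher maxima, 3.74 on chromosome 14 (Mcpt8 to Gzmb) and 2.74 on chromosome 9 (Mmp1a to Yap1). The highest in Ca/Ca sarcomas 2, 3 and 5 were 1.36, 1.70 and 1.02, on chromosomes 17, 6 and 7.

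**Figure D3:**
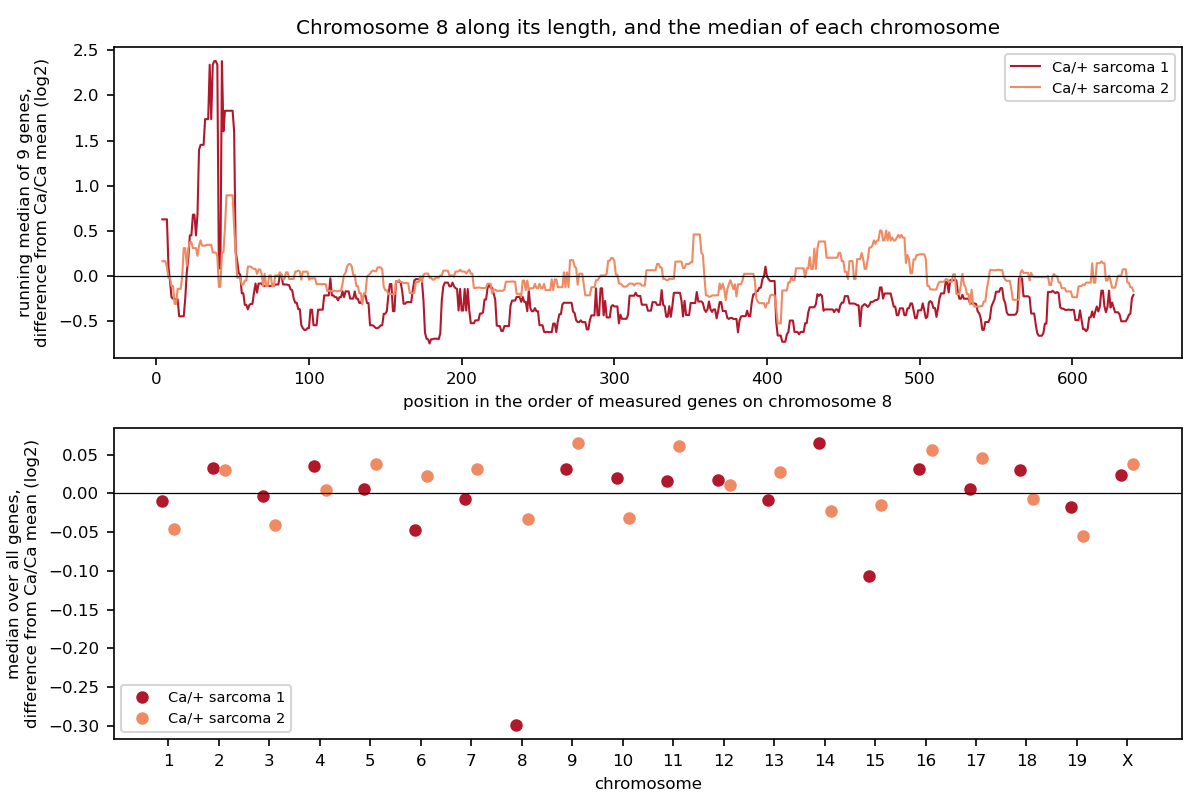
Upper panel, running median over 9 neighbouring genes of the difference from the Ca/Ca mean (log2) along chromosome 8 in the order of measured genes, 1 line per Ca/+ sarcoma. Lower panel, median difference over all genes of each chromosome, where chromosome 8 of Ca/+ sarcoma 1 (-0.30) lies below every other point.

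Set against muscle, the 10 genes behaved differently from one another. The tests below share arrays with the contrast that chose the genes, since low levels in Ca/Ca sarcomas favoured the choice, and they are no independent support for it. In the 4 Ca/Ca sarcomas 2 of 10 passed limma's test as higher than in the 2 muscles (8.88% of all genes did) and 0 passed as lower (10.4% did). At an unadjusted p under 0.05 the counts were 3 and 0, where 33.6% of all genes passed in either direction. Rab20 rose by 1.25 (SE 0.22, adjusted p = 0.0152), with 5.87 ± 0.24 in Ca/Ca sarcomas (SD, n = 4) and 4.62 ± 0.37 in muscles (SD, n = 2). Ing1 rose by 0.70 (SE 0.15, adjusted p = 0.0254), with 8.73 ± 0.16 and 8.03 ± 0.03, and was higher in 4 of 4 sarcomas than in both muscles. With the Ca/+ muscle left out, which leaves 1 muscle, neither call held, although the differences were 0.99 for Rab20 (adjusted p = 0.110) and 0.68 for Ing1 (adjusted p = 0.150). The Ing1 call was also lost without Ca/Ca sarcoma 2 (0.71, adjusted p = 0.0693), without the Ca/Ca muscle (0.72, 0.0902), under cyclic loess (0.47, 0.0804) and under centring on housekeeping genes (0.53, 0.0618).

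The other 8 genes did not pass in Ca/Ca sarcomas against muscle. Tfdp1 differed by 0.47 (SE 0.16, adjusted p = 0.0930), and its 4 Ca/Ca sarcomas lay above both muscles. Differences of 0.37 for Pcid2, 0.29 for Lamp1, 0.27 for Arhgef7, -0.09 for Naxd, -0.14 for Cul4a, -0.36 for Ankrd10 and -0.74 for Irs2 had adjusted p between 0.229 and 0.755. Of the 11 other genes of the stretch, Tmco3 passed (0.56, SE 0.14, adjusted p = 0.0431). That call was lost when any 1 of the 6 arrays was left out, with differences of 0.49 to 0.59 (adjusted p from 0.0548 without Ca/Ca sarcoma 5 to 0.215 without the Ca/+ muscle), under cyclic loess (0.45, 0.0755) and under housekeeping centring (0.39, 0.122).

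The comparison named in the study's design sets all 6 sarcomas against the 2 muscles. In it 1 of 10 genes passed limma's test as higher (13.1% of all genes did) and 0 as lower (13.2% did). At an unadjusted p under 0.05 the counts were again 1 and 0, where 37.9% of all genes passed in either direction. Rab20 rose by 1.31 (SE 0.27, adjusted p = 0.00914), with 5.93 ± 0.37 in sarcomas (SD, n = 6) and 4.62 ± 0.37 in muscles (SD, n = 2). All 6 sarcomas lay above both muscles, and without the Ca/+ muscle the difference was 1.05 (adjusted p = 0.117). Ing1 differed by 1.13 (SE 0.61, adjusted p = 0.217), and without Ca/+ sarcoma 1, whose level was far above the others, by 0.74 (adjusted p = 0.0124). The differences of Tfdp1 and Pcid2 were 1.30 (SE 0.84, adjusted p = 0.303) and 1.20 (SE 0.86, adjusted p = 0.352). Their SDs over the 6 sarcomas were 1.31 and 1.34, against 0.08 and 0.19 over the 4 Ca/Ca sarcomas. These 6 sarcomas include the tumours whose values chose the genes.

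**Figure D4:**
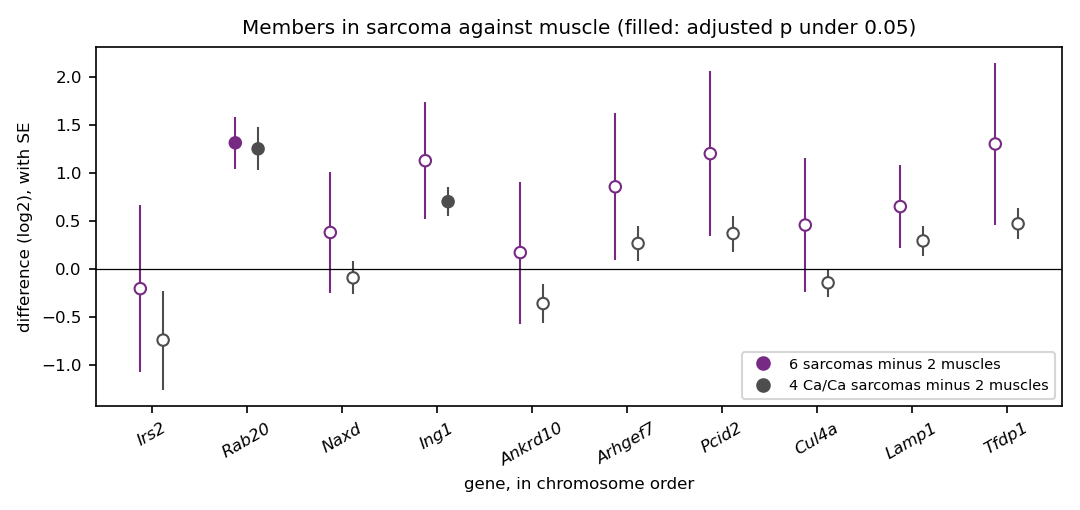
Difference in log2 level between sarcoma and muscle for the 10 genes, with SE from limma, for all 6 sarcomas minus 2 muscles and for the 4 Ca/Ca sarcomas minus 2 muscles. Filled points passed at an adjusted p under 0.05, which are Rab20 in both comparisons and Ing1 in the second, and the SE of most genes is wider where the Ca/+ sarcomas are included.

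Between the 2 Ca/+ and the 4 Ca/Ca sarcomas, limma passed 0 of 12393 genes in either direction (0.0% each), and 971 genes (7.84%) had an unadjusted p under 0.05. The mean difference in that fit ran from 0.19 for Rab20 to 2.49 for Tfdp1 and 2.50 for Pcid2.

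Targets of E2F, the factor that pairs with DP1, rose in sarcoma against muscle for 28 of 38 genes, and for 16 of 38 with the Ca/Ca sarcomas alone. In the 6 sarcomas against muscle, by limma, 28 rose and 0 fell, beside 13.1% and 13.2% of all genes. The median difference was 1.35, beside 0.03 over all genes. At an unadjusted p under 0.05, 35 were higher and 0 lower, where 37.9% of all genes passed in either direction. In Ca/Ca sarcomas alone 16 rose, 0 fell and 22 did not pass, beside 8.88% and 10.4% of all genes. The median was 1.10, beside 0.04 over all genes. Unadjusted, 30 were higher and 0 lower, where 33.6% of all genes passed in either direction. Cdk1, the kinase that starts mitosis, rose by 2.88 (SE 0.51, adjusted p = 0.00488), and Brca1, a DNA repair gene, by 2.28 (SE 0.39, adjusted p = 0.00401). Without the Ca/+ muscle they gave 2.09 (adjusted p = 0.0648) and 2.00 (adjusted p = 0.0574).

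The same targets were higher in the Ca/+ than in the Ca/Ca sarcomas by count, as a description without a test. In Ca/+ sarcoma 1, 21 of 38 were raised, with a median difference of 0.56, and in Ca/+ sarcoma 2, 31 of 38 with a median of 0.78, beside the 7.71% and 7.33% of all genes given above. The 20 that were raised in both compare with 2.94% of all genes. The mean level of the 38 was 7.73 in Ca/+ sarcoma 1 and 7.92 in Ca/+ sarcoma 2, against 7.44, 7.50, 7.12 and 6.64 in Ca/Ca sarcomas 1, 2, 3 and 5 and 5.74 and 6.20 in the Ca/+ and Ca/Ca muscles. Ca/+ sarcoma 2, whose excess of Tfdp1 was the smaller, thus had the larger mean of the targets, and Ca/Ca sarcoma 5 had the lowest mean of the sarcomas. Tk1, the thymidine kinase of dividing cells, exceeded the Ca/Ca mean by 1.44 and 1.54 in Ca/+ sarcomas 1 and 2, and Ccne2, which encodes cyclin E2, by 1.30 and 0.72. Their part in the level of Tfdp1, or its part in theirs, was not tested.

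The E2F, DP and pocket protein genes themselves went in both directions against muscle. Of 16 measured, 7 rose and 3 fell (13.1% and 13.2% of all genes did). In Ca/+ sarcomas 1 and 2, 5 (31.2%) and 3 (18.8%) were raised, beside 7.71% and 7.33% of all genes. E2f8, a repressor of the E2F family, rose by 2.78 (SE 0.55, adjusted p = 0.00781). Ccnd1, which encodes the cyclin D1 that acts on pocket proteins, rose by 2.65 (SE 0.62, adjusted p = 0.0150), and by 1.29 without the Ca/+ muscle (adjusted p = 0.107). In Ca/+ sarcomas 1 and 2 Ccnd1 differed from the Ca/Ca mean by 0.84 and 0.40, and Rbl1, the pocket protein p107, by 0.73 and 1.02. Rbl1 in Ca/+ sarcoma 1 (7.69) was nearly level with Ca/Ca sarcoma 2 (7.68), while Ca/Ca sarcoma 5 was low (5.98).

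Of 30 measured CUL4 ligase genes, 8 rose and 4 fell in sarcomas against muscle (13.1% and 13.2% of all genes did). In each Ca/+ sarcoma 1 of the 30 was raised (3.33%), beside 7.71% and 7.33% of all genes. Cdt1 rose by 1.90 (SE 0.26, adjusted p = 0.00157), and Dtl, the CUL4 receptor that recognises CDT1, by 1.91 (SE 0.44, adjusted p = 0.0143). Without the Ca/+ muscle Dtl gave 1.73 (adjusted p = 0.132), and without the Ca/Ca muscle 2.09 (adjusted p = 0.0538). In Ca/+ sarcomas 1 and 2 Dtl was 0.86 and 1.01 above the Ca/Ca mean, and Cdkn1a, the cell cycle inhibitor p21, differed from it by -0.62 and -0.73.

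The other lists are read against the same shares of all genes, 13.1% higher and 13.2% lower in sarcoma than in muscle and 7.71% and 7.33% raised in Ca/+ sarcomas 1 and 2. Of 26 insulin receptor signalling genes, 2 rose and 3 fell against muscle, and 4 (15.4%) and 1 (3.85%) were raised in Ca/+ sarcomas 1 and 2. Irs3, a relative of Irs2, fell by 2.00 (SE 0.26, adjusted p = 0.00114), and Grb14, a receptor-binding adaptor, fell by 1.34 (SE 0.30, adjusted p = 0.0121), with adjusted p of 0.101 without the Ca/+ muscle and 0.0606 without the Ca/Ca muscle. Grb10, an adaptor of the same kind, exceeded the Ca/Ca mean by 1.29 and 1.42 in Ca/+ sarcomas 1 and 2, but 9.78 in Ca/Ca sarcoma 1 was close to its 9.92 and 10.05 there.

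Among 25 lysosome genes, 6 rose and 2 fell, and 2 (8%) and 1 (4%) were raised in Ca/+ sarcomas 1 and 2. Gla, the lysosomal alpha-galactosidase, rose by 1.99 (SE 0.42, adjusted p = 0.0100; 0.103 without the Ca/+ muscle), and Tfeb, the regulator of lysosome genes, fell by 1.37 (SE 0.18, adjusted p = 0.00136). The lysosomal channel gene Mcoln1, which lies on chromosome 8 before Irs2, was 1.44 and 0.30 above the Ca/Ca mean in Ca/+ sarcomas 1 and 2, and the proton pump gene Atp6v1b2, which lies on chromosome 8 after Tfdp1, differed by -1.06 and -0.59. Of 15 Rab genes of phagosomes and endosomes, 3 rose and 2 fell and 0 were raised in either Ca/+ sarcoma. Rab31 rose by 1.88 (adjusted p = 0.0117; 0.147 without the Ca/+ muscle) and Rabgef1, a Rab5 exchange factor, fell by 1.17 (adjusted p = 0.000862).

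In the PIX, GIT and PAK module of Arhgef7, 4 of 15 genes rose, with Pak3 at 1.23 (adjusted p = 0.00780; 0.104 without the Ca/+ muscle) and the actin regulator Cfl1 at 1.11 (adjusted p = 0.00451; 0.0573 without it), and 1 was raised in each Ca/+ sarcoma. Of 14 genes of the ING1 and SIN3-HDAC complex, 2 rose, a share near that of all genes. They were Rbbp4, by 0.88 (adjusted p = 0.00492), and Hdac1, by 0.71 (adjusted p = 0.00651; 0.0525 without the Ca/+ muscle). In Ca/+ sarcoma 1, 2 genes of this list were lowered, Ing2 (-1.28) and Sin3b (-0.99), and both lie on chromosome 8 after Tfdp1. Of 12 TREX-2 and export genes, 5 rose, among them Eny2 by 1.00 (adjusted p = 0.00503; 0.0955 on the mean of its probe sets) and Alyref by 0.99 (adjusted p = 0.00826; 0.0995 without the Ca/+ muscle), and 1 and 0 were raised in Ca/+ sarcomas 1 and 2. Of 8 NAD genes, 3 fell and 0 were raised, with Nmnat3 at -1.32 (adjusted p = 0.00214) and Nmnat1 at -0.70 (adjusted p = 0.0143; 0.163 without the Ca/+ muscle), both enzymes of NAD synthesis. The widest differences of Ca/+ sarcoma 1 from the Ca/Ca mean in the lists of this paragraph and of the Rab genes, with Ca/+ sarcoma 2 after it, were 1.31 and 0.51 for Parva and 0.37 and 0.26 for Pak2, 0.63 and 0.08 for Thoc2, and 0.36 and 0.49 for Ddx39b. They were -0.67 and -0.53 for Qprt, 0.39 and 0.24 for Nnt, 0.56 and -0.01 for Rab31, and -0.46 and 0.22 for Rab8a, which also lies on chromosome 8.

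**Figure D5:**
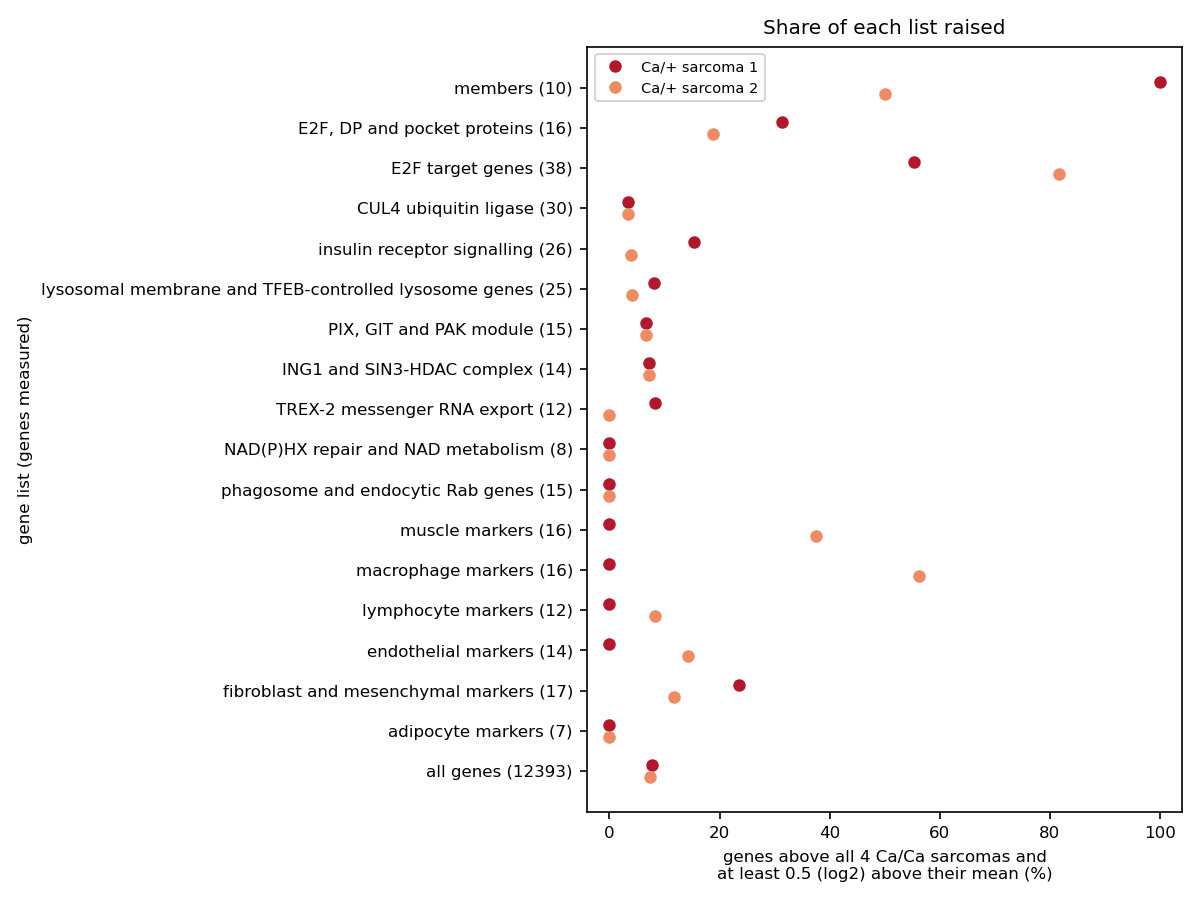
Share of measured genes in each list that lay above all 4 Ca/Ca sarcomas and at least 0.5 (log2) above their mean, for Ca/+ sarcoma 1 and Ca/+ sarcoma 2, with the number of genes measured in parentheses and all genes as the last entry. Of the E2F target genes 55.3% were raised in Ca/+ sarcoma 1 and 81.6% in Ca/+ sarcoma 2, and of the macrophage markers 0 and 56.2%, beside 7.71% and 7.33% of all genes. In both of these lists Ca/Ca sarcoma 5 had the lowest mean of the Ca/Ca sarcomas.

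Cell type markers also differed between the tumours. Over 16 muscle fibre genes the mean level was 6.49 in Ca/+ sarcoma 1 and 8.54 in Ca/+ sarcoma 2, between 7.49 and 8.61 in the Ca/Ca sarcomas, and 12.58 and 12.65 in the Ca/+ and Ca/Ca muscles, and all 16 fell in sarcoma against muscle. Ca/+ sarcoma 1 thus had the lowest muscle signal, and 12 of the 16 were lowered in it, beside 7.81% of all genes. In Ca/+ sarcoma 2, 6 of the 16 (37.5%) were raised, beside 7.33% of all genes. Of 14 endothelial genes, 8 were lowered in Ca/+ sarcoma 1, and 2 were raised in Ca/+ sarcoma 2. Over 12 lymphocyte genes the mean was 4.98 and 6.35 in Ca/+ sarcomas 1 and 2 and from 4.21 to 6.98 in the Ca/Ca sarcomas, of which Ca/Ca sarcoma 5 was the lowest. Of 16 macrophage genes, 0 were raised in Ca/+ sarcoma 1 and 9 (56.2%) in Ca/+ sarcoma 2. Their mean was 9.73 and 10.52 there, against 10.30, 10.42, 10.39 and 8.99 in Ca/Ca sarcomas 1, 2, 3 and 5. The low Ca/Ca sarcoma 5 pulled down the Ca/Ca mean used for these calls. Over 14 endothelial genes the means were 6.02 and 6.77 in Ca/+ sarcomas 1 and 2 and from 6.43 to 6.71 in the Ca/Ca sarcomas. Over 17 fibroblast and mesenchymal genes they were 10.19 and 10.37, and from 9.94 to 10.56. The Ca/+ and Ca/Ca muscles also differed, with means of 8.30 and 9.73 for macrophage, 6.83 and 6.13 for lymphocyte, 8.03 and 7.73 for endothelial, and 9.26 and 10.47 for fibroblast and mesenchymal genes. In bulk tissue, fewer cells of a type and less RNA per cell cannot be told apart, and the part of cell makeup in the levels of the 10 genes was not tested. Braf, the targeted kinase, had levels of 4.81 and 4.45 in Ca/+ sarcomas 1 and 2, 4.64 to 5.07 in Ca/Ca sarcomas and 4.62 and 4.50 in the Ca/+ and Ca/Ca muscles. This does not check the labels, because no source used here places its probes relative to the conditional allele. No probe set named for p53 was analysed here.

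Outside the stretch, the 5 genes whose levels over the 6 sarcomas most resembled the mean of the 10 (Pearson's r from 0.985 to 0.989) were Usp45, Sapcd1, Prss35, Tnfaip1 and Enpp5. They lie on chromosomes 4, 17, 9, 11 and 17. The profile they resemble is 1 high tumour and 1 intermediate one, so r rests on those 2 arrays, and no p is given. Prss35 exceeded the Ca/Ca mean by 3.11 in Ca/+ sarcoma 1 and 1.18 in Ca/+ sarcoma 2, and Sapcd1 by 2.53 and 0.77. Usp45, Tnfaip1 and Enpp5 exceeded it by 0.88, 0.53 and 1.70 in Ca/+ sarcoma 1 and by 0.29, 0.17 and 0.34 in Ca/+ sarcoma 2.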

How the data were processed

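Total RNA of 6 sarcomas and 2 muscles was measured on Affymetrix arrays. The deposited values are log2 expression per probe set, processed by the authors with RMA, per the submitters' processing notes. RMA corrects background and gives all arrays 1 distribution, so a change in total RNA is not measured. Its version and whether the 8 arrays were processed together are not given in the sources used here. Array medians ran from 5.79 to 5.90, no pair of arrays had more than 32 equal values over the 12393 genes, and the small number of arrays limits the precision. Columns of other samples numbered 0.

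Of 22690 probe sets, 64 were controls, 20380 had 1 symbol in the platform annotation, 691 had several and 1555 were not listed. Each gene was represented by its brightest probe set on average. RefSeq's gene table (GRCm38.p6) gave the gene order and the promoter windows, and no genome build is named for the deposited values, so no other coordinates are printed. Groups came from the sample titles. Comparisons were fitted across all genes with limma 3.58.1 in R 4.3.3 (lmFit and eBayes), with Benjamini-Hochberg adjustment over 12393 genes and a threshold of 0.05. The fit was tested on simulated data. Each Ca/+ sarcoma was set against the 4 Ca/Ca sarcomas by the rule for raised genes, which is not a test. Figures used Python 3.11.15 and matplotlib 3.10.9.

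Named genes are the 10 members, the other measured genes between Irs2 and Tfdp1, 5 on each side, 2 per gene list for sarcoma against muscle among those that passed and 2 for the difference of Ca/+ sarcoma 1, and 5 of most similar profile. The members and the lists were chosen with earlier results of these data known. Alternatives were the mean of probe sets, no dim genes (the lowest 25%), cyclic loess, housekeeping centring, array weights, a minimum of 1 (log2), genotype as a covariate, the tumour number as a block and leaving out each array. The tumour numbers are labels of separate tumours, and nothing says that they pair samples.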

Additional observations from a re-analysis of the deposited data

Results flagged for a closer look

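For 7 of the 10 genes, 9 probe sets in all, Ca/+ sarcoma 1 lay far from the other 5 sarcomas by Dixon's test at the 95% level, and in each case it was the highest. The levels there were 9.40 for Irs2, 11.04 for Naxd, 11.07 and 10.82 for the 2 probe sets of Ing1, 10.08 and 9.41 for those of Ankrd10, 10.84 for Arhgef7, 9.32 for Cul4a and 13.26 for Lamp1. The gap to the nearest sarcoma was between 0.639 and 0.856 of the whole range. Chance flags about 1 in 20 groups, and these genes were chosen for high values in this tumour, so the flags restate the choice. Tfdp1, Pcid2 and Rab20 were not flagged: for Tfdp1 and Pcid2 the nearest sarcoma was Ca/+ sarcoma 2, at 10.48 and 8.35, and for Rab20 it was Ca/Ca sarcoma 3, at 6.20.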

How the results depend on the processing

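The number of the 10 genes raised in Ca/+ sarcoma 1 stayed at 10 when any 1 Ca/Ca sarcoma was left out (10 to 10), and that in Ca/+ sarcoma 2 at 5 (5 to 5). In Ca/+ sarcoma 2 it was 2 with a minimum of 1 (log2) and 3 under housekeeping centring, which moved the median of all genes there to -0.10. Averaging probe sets gave Arhgef7 1.56 and 0.24 in Ca/+ sarcomas 1 and 2, because its second probe set was dim. In sarcoma against muscle the counts of all genes were 1626 higher and 1630 lower. They were 1053 and 1928 under cyclic loess and 1049 and 2304 under housekeeping centring, which moved the median of all genes from 0.03 to -0.18. Leaving out 1 array gave 372 to 1772 higher and 823 to 1679 lower, the fewest without the Ca/+ muscle, and 0 to 2 of the 10 genes higher and 0 to 0 lower. In Ca/Ca sarcoma against muscle 662 genes were higher under cyclic loess and 697 under housekeeping centring, with 1 of the 10 genes under each. Leaving out 1 array gave 91 to 1272 higher and 510 to 1369 lower, the fewest again without the Ca/+ muscle, with 0 to 2 of the 10 higher and 0 to 0 lower. A turned sign was seen only for differences that had not passed. In sarcoma against muscle Ankrd10 gave -0.035 under cyclic loess, -0.032 under housekeeping centring and -0.29 without Ca/+ sarcoma 1, Naxd gave -0.0076 without Ca/+ sarcoma 1, and Irs2 gave 0.08 without Ca/Ca sarcoma 3, 0.49 without the Ca/+ muscle and 0.054 with genotype as a covariate. With 1 array left out these differences ran from -0.29 to 0.35 for Ankrd10, from -0.0076 to 0.52 for Naxd and from -0.90 to 0.49 for Irs2. In Ca/Ca sarcoma against muscle Lamp1 gave -0.010 under cyclic loess. Same-numbered Ca/+ and Ca/Ca sarcomas had deviations correlated at -0.19 (number 1) and 0.29 (number 2). The 2 Ca/+ sarcomas were centred on their own mean, so each value recurs with the opposite sign for the other one. These correlations therefore cannot show whether numbers pair samples. Between Ca/+ and Ca/Ca sarcomas 0 genes passed with the tumour number as a replicate block, as without it, though that block leaves little from which to estimate variation. Leaving out 1 array gave 0 to 1 genes higher and 0 to 0 lower, with 0 to 0 of the 10 genes in either direction; the 1 was Ifi44l without Ca/+ sarcoma 1. Where an array was left out of a group of 2, the lone array was assumed to vary like the other group. Apart from these constructions, the cause was not tested.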
